A study of Rattus norvegicus with 74 samples.

Results

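Tcte1 encodes a protein of the nexin-dynein regulatory complex, and this account follows it through whole muscle, isolated muscle mitochondria and heart of sedentary and treadmill-trained rats. It was chosen by symbol, because it had shown the strongest training difference in whole muscle. The symbol names 2 of the 30560 genes in the deposited tables, ENSRNOG00000019961 and ENSRNOG00000065569, and both are described. Below, "Tcte1" alone means ENSRNOG00000019961, and the other is called the second row.

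All rats were male wild-type Wistar Kyoto, 9 weeks old at sampling, and drank water with 8% deuterium oxide. Trained rats (ExT) ran from 5 weeks of age on a motorised treadmill for 4 weeks, on 5 days a week, reaching 60 min at 20 m/min, and tissue was taken 24 h after the last run. Sedentary controls (Sed) spent the same time on a stationary belt, and rats were housed in pairs. Each of 30 rats gave a library of whole red inner gastrocnemius (SM) and one of its mitochondria (MT), isolated with an antibody from fresh tissue and cleaned with proteinase-K and RNase-A, and 14 of them gave left ventricle wall (LV). There were 15 libraries in each arm of SM and of MT and 7 in each arm of LV, named here SM_Sed, SM_ExT and so on. SM and MT libraries were made with a Zymo kit from 50 ng and 10 ng of RNA, and LV libraries with an Illumina kit from 100 ng.

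The nexin-dynein regulatory complex links neighbouring doublet microtubules in the shaft of motile cilia and sperm tails, the axoneme, and helps to coordinate the dynein motors that bend it. TCTE1, also called DRC5, is known as a leucine-rich repeat protein of this complex that is abundant in testis and needed for sperm movement. Adult skeletal muscle fibres and heart muscle cells carry no motile cilia.

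The start of the gene is shown because the results below turn on how much of its RNA was counted. RefSeq places this Tcte1 promoter, 250 bases before to 50 bases after a transcript start, on the minus strand at chr9:22970342-22970641 of build GRCr8. The counts were made on another build, mRatBN7.2, per the submitters' processing notes, so these coordinates were joined to no count. Capitals mark GTTGCC, the half-site of the motif bound by RFX factors, which act at many genes of cilia, searched on both strands.

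Tcte1 promoter: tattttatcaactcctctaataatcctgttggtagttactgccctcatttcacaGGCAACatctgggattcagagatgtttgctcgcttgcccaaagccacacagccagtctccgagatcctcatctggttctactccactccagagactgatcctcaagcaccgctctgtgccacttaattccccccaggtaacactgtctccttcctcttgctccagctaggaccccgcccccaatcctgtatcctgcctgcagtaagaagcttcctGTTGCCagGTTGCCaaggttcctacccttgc

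GTTGCC occurred 3 times in this window, and the pair near its end lies 19 to 24 and 27 to 32 bases after the transcript start. Of 33469 RefSeq promoters of the same length, 12.2% held it at least once and 1.18% at least 2 times. The E-box CANNTG, whose letters are the same on both strands and which myogenic factors are among those to bind, occurred 2 times, as it did at least that often in 38.6% of promoters. The first GTTGCC match, on the opposite strand, shares a base with one of these E-boxes. No match was found for AAGGTCA (bound by estrogen-related receptors, in 4.61% of promoters), TGACGTCA (the cyclic AMP response element, 1.83%), the motifs of NRF1 (0.852%) and MEF2 (0.565%). These are matches of letters and were not joined to any measure of binding.

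Levels are CPM of nuclear-encoded genes, that is, counts scaled to a fixed total of nuclear-encoded counts in every library, because the share of counts on the 37 genes of the mitochondrial genome ran from 12.9% to 95.4% among MT libraries. The median total was 28162264 counts for SM, 1479292 for MT and 67459453 for LV libraries. A count of 3 corresponds to a level of 0.115 to 0.226 in SM, 2.84 to 6.97 in MT and 0.0713 to 0.101 in LV. The SM and LV labels matched their markers, and the MT label was not checked in this way. The mitochondrial-genome share of SM libraries was 22.1% to 35.9%, so the lowest MT library lay below all of them. Of 7 cardiomyocyte genes the summed level was at least 41849 in LV_Sed and at most 31.02 in SM, and that of 9 fast-fibre genes was at least 85358 in SM and at most 83.6 in LV. Rats numbered 2 to 16 and 17 to 32 are also given apart, as in earlier work on these data. The labels give the numbers only and do not call either range a batch.

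Tcte1 was low in sedentary muscle and several-fold higher in trained muscle. In SM_Sed it had 13 to 82 counts, which is a level of 0.745 to 3.94 with a median of 1.96. In SM_ExT it had 52 to 239 counts, a level of 3.92 to 12.1 with a median of 6.97. Means were 2.14 ± 1.10 and 7.13 ± 2.08 (SD, n = 15 each), a ratio of 3.33.

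The arms overlapped by a single pair of libraries. SM_Sed rat 19 was highest among sedentary rats at 3.936, and SM_ExT rat 2 was lowest among trained rats at 3.915. All other trained libraries lay above every sedentary one. SM_ExT rats 5 and 6 were the highest, at 12.1 and 10.6, and SM_Sed rats 8, 12 and 4 were the lowest, at 0.745, 0.814 and 0.880.

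**Figure D1:**
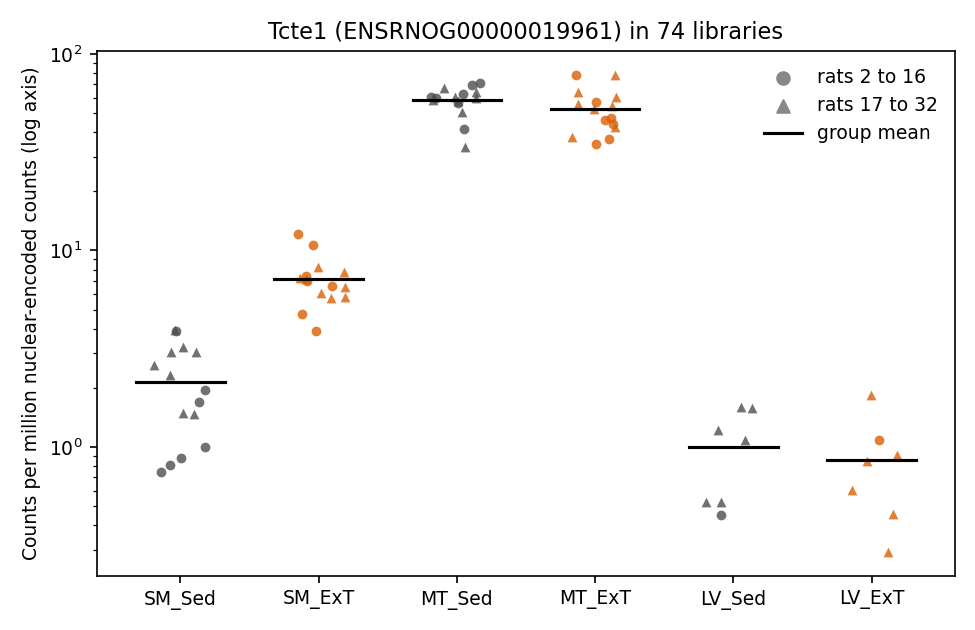
Tcte1 level in each of the 74 libraries, on a log axis of nuclear-encoded CPM, by group (grey Sed, orange ExT, circles rats 2 to 16, triangles rats 17 to 32, bars group means). The SM groups stand apart with means of 2.14 and 7.13, while the MT groups, at 58.2 and 52.7, and the LV groups, at 0.998 and 0.862, overlap.

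In the fit over all genes (edgeR quasi-likelihood, TMM scaling) the log2 fold change of Tcte1 between ExT and Sed in SM was 1.68 (SE 0.198), or 3.22-fold. This contrast chose the gene, so the value is a description and no p is attached to it. Its log2 fold change was the highest and its p the smallest of the 13570 genes tested. edgeR called 28 genes at an adjusted p under 0.05, 25 of them higher in ExT, which is 0.206% and 0.184% of the genes tested, and 3 lower, or 0.0221%. The genes that came next by p were all higher in ExT by less: Prom2, which encodes a membrane protein of cell protrusions, by a log2 fold change of 0.54 (SE 0.0851), and Lgr6, a receptor for R-spondins, by 0.76 (SE 0.123). Ndrg4 followed at 0.91 (SE 0.162), the imprinted gene Zim1 at 0.45 (SE 0.0815) and Oplah, an enzyme of the glutathione cycle, at 0.34 (SE 0.0638).

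**Figure D2:**
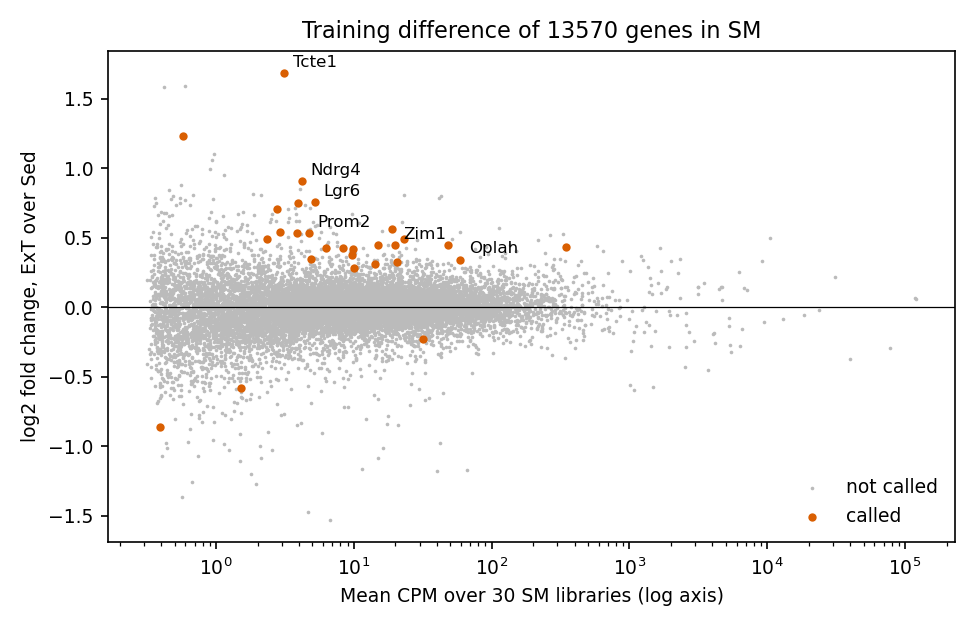
Log2 fold change of ExT over Sed against mean CPM (log axis) for the 13570 genes tested in SM, with the 28 called genes in orange. Tcte1 is the highest point, at 1.68 with a mean of 3.13 CPM, some uncalled genes of lower CPM come close to it, and 3 called genes lie below 0.

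The difference was present in both ranges of rat numbers and larger in the earlier one. In rats 2 to 16 the level was 1.57 ± 1.13 in Sed and 7.49 ± 2.96 in ExT (SD, n = 7 each), a ratio of 4.76. In rats 17 to 32 it was 2.64 ± 0.854 and 6.82 ± 0.924 (SD, n = 8 each), a ratio of 2.58. The log2 fold change was 2.18 (SE 0.349) in the earlier and 1.34 (SE 0.171) in the later range, and whether these differ was not tested. Ordered by p, Tcte1 ranked 25 among the genes tested in the earlier range alone and 1 in the later range alone. In the later range the arms were clearly apart, with 3.94 as the highest Sed and 5.72 as the lowest ExT value. In the earlier range they only just did not overlap, at 3.9146 in SM_Sed rat 15 and 3.9152 in SM_ExT rat 2.

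**Figure D3:**
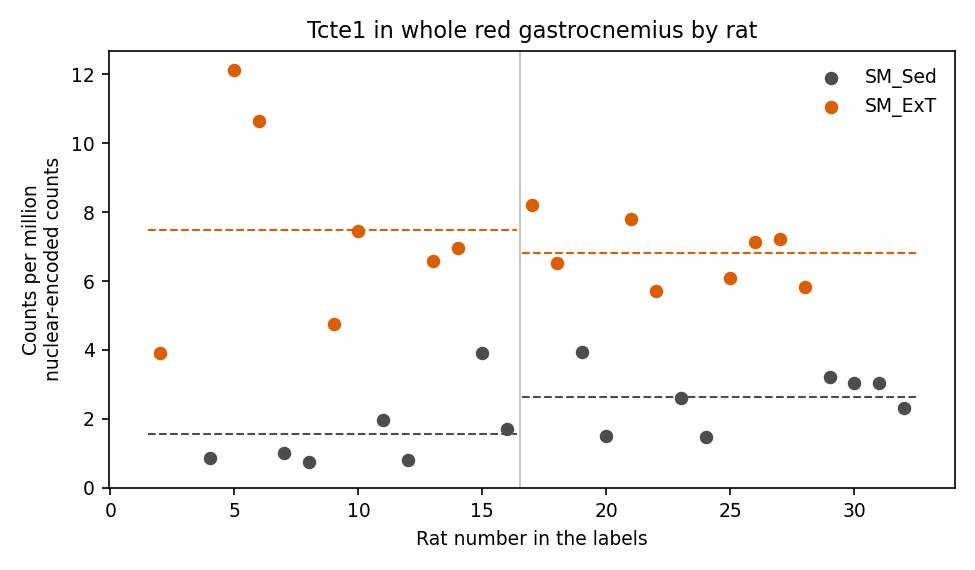
Tcte1 level in SM, in nuclear-encoded CPM, against the rat number in the labels (grey Sed, orange ExT, dashed lines the mean of each arm in each range, the vertical line between rats 16 and 17). The ExT means are 7.49 and 6.82 and the Sed means 1.57 and 2.64.

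Rat number itself was tested with the arm in the model. The choice of the gene did not use rat number, but it used the same SM libraries. How far that choice moved this difference and its p was not tested. Tcte1 was not called between the ranges, at 0.20 (log2) for the later over the earlier range (edgeR adjusted p 0.571, SE 0.198). That value is a common shift for both arms, whose mean levels moved in opposite directions. From the earlier to the later range the mean rose from 1.57 to 2.64 in SM_Sed. In SM_ExT it fell from 7.49 to 6.82. Whether the ranges differ within either arm was not tested. Of 14033 genes tested, 12.3% were called in that comparison, 5.62% higher and 6.67% lower in the later range.

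In MT, Tcte1 did not pass the test for training. MT_Sed libraries had 21 to 70 counts, a level of 33.5 to 70.9 with a median of 60.0, and MT_ExT libraries had 16 to 62 counts, a level of 35.0 to 78.5 with a median of 52.4. The groups overlapped over nearly their whole range, at 58.2 ± 9.97 and 52.7 ± 13.5 (SD, n = 15 each). The log2 fold change was -0.14 (edgeR adjusted p 0.9997, SE 0.110). edgeR called 0 of 19281 genes in this comparison, or 0%, with 912 at an unadjusted p under 0.05, and DESeq2 called 0. Within the ranges the fold change was -0.32 (edgeR adjusted p 0.888, SE 0.165) in the earlier and -0.01 (edgeR adjusted p 1.00, SE 0.145) in the later. That the training difference of Tcte1 differs between SM and MT was not tested, since the SM value chose the gene.

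In LV, Tcte1 was the lowest of the sampled tissues and also did not pass. LV_Sed libraries had 17 to 67 counts, a level of 0.451 to 1.59 with a median of 1.09. LV_ExT libraries had 12 to 62 counts, a level of 0.293 to 1.84 with a median of 0.846. The LV_ExT values enclosed those of LV_Sed, and the means were 0.862 ± 0.512 and 0.998 ± 0.500 (SD, n = 7 each). The log2 fold change was -0.17 (edgeR adjusted p 0.961, SE 0.370), and -0.35 (edgeR adjusted p 0.772, SE 0.392) in rats 17 to 32 alone. edgeR called 0 of 14488 genes for training in LV, or 0%, with 855 at an unadjusted p under 0.05, and DESeq2 called 1. LV holds 2 libraries of the earlier range, 1 per arm, too few for a value there. Whether the training difference differs between LV and SM was not tested.

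MT levels stand on a background that whole muscle does not show. Some listed genes with 0 counts in every SM and LV library had counts in every MT library: Rsph4a, an axonemal radial spoke gene, was at 29.6 ± 9.62 in MT_Sed, and the germ-cell genes Pgk2 and Spata19 at 20.7 ± 5.15 and 19.9 ± 6.41 (SD, n = 15 each). Other listed genes nearly absent from SM stood higher in MT_Sed. Drc7 and Dnai3, with at most 1 count in any SM library, were at 67.6 ± 12.8 and 74.1 ± 13.6. Spag17, with at most 3, was at 132 ± 21.3 (SD, n = 15 each). The MT_Sed mean of Tcte1, 58.2, lay between the lowest and highest of these genes. All of them were chosen after their values were seen. The part of that background in the MT level of Tcte1 was not tested, so the MT values are no measure of its abundance in mitochondria. Ordered by mean level, the groups ran MT_Sed, MT_ExT, SM_ExT, SM_Sed, LV_Sed and LV_ExT. MT_Sed and MT_ExT did not differ beyond their spread, nor did LV_Sed and LV_ExT. The lowest MT library, at 33.5, lay above the highest SM library, at 12.1. SM_Sed and LV_Sed overlapped in their ranges, and the lowest LV library, LV_ExT rat 17, was at 0.293.

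Between tissues of sedentary rats Tcte1 passed the test in both comparisons, as most genes did. Both use SM_Sed libraries, which were part of the contrast that chose the gene. How far that choice moved these differences and their p was not tested, so they are read as descriptions. In LV_Sed against SM_Sed of the same 7 rats the log2 fold change was -1.99 (edgeR adjusted p 4.7e-06, SE 0.295), in a comparison that called 78.7% of 14367 genes. Calls were 5750 higher (40%) and 5551 lower (38.6%) in LV, and 7226 and 4296 with library totals alone. Kit and RNA input differed between these tissues and cannot be told apart from them. In MT_Sed against SM_Sed it was 2.65 (edgeR adjusted p 8.1e-16, SE 0.192), in a comparison where 94.8% of 22842 genes passed, 61.7% toward MT and 33.1% toward SM. RNA input differed here too. There the median gene stood at 1.81, and Tcte1 was 0.84 above it, at the 54.5th percentile of all genes tested. Its distance from the median was 0.82 with library totals alone, which gave 17616 calls higher and 2811 lower against 14086 and 7562, and -0.94 with no filter on low counts.

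Rats with a high level in muscle were not detectably those with a high level in the other samples. Within arms, 8 relations between SM and MT or LV of the same rat were computed on log2 levels. For SM with MT, Pearson's r was 0.35 in Sed (Spearman's rho 0.29, permutation p 0.210 and 0.304) and 0.11 in ExT (rho 0.23, permutation p 0.702 and 0.410), over 15 rats each. Without the 2 rats farthest from the SM median r was 0.28 and -0.30. For SM with LV, r was -0.20 in Sed (rho -0.29, exact permutation p 0.627 and 0.556) and -0.38 in ExT (rho -0.32, exact permutation p 0.407 and 0.498), over 7 rats each, and -0.54 and 0.27 without the farthest 2. Benjamini-Hochberg values over the 8 were all 0.702.

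The second row of the symbol behaved otherwise. ENSRNOG00000065569 had 1 to 10 counts in SM_Sed and 0 to 9 in SM_ExT, with sums of 54 and 59 over 15 libraries each. Its level was 0.193 ± 0.122 in Sed and 0.195 ± 0.114 in ExT (SD, n = 15 each), close to what 3 counts give. It did not pass the filter on low counts in SM or LV. It made up a median of 7.14% of the counts under the symbol in SM_Sed and 2.99% in SM_ExT.

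In MT the second row was much closer to the first. It had 10 to 30 counts in MT_Sed and 2 to 26 in MT_ExT, a median of 27.3% and 29.8% of the counts under the symbol. Its training difference in MT was 0.01 (edgeR adjusted p 0.9997, SE 0.163). Its level was 22.4 ± 5.02 in MT_Sed and 22.5 ± 8.31 in MT_ExT (SD, n = 15 each). In LV it had 0 to 6 counts, with 0 in 4 of 14 libraries. What this row represents is not given in the sources used here. Reads shared by near-identical copies, or lying where genes overlap, may have been dropped or split between rows, so the values of both rows are uncertain to that extent. With both rows summed the SM difference was 1.60 (SE 0.186).

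**Figure D4:**
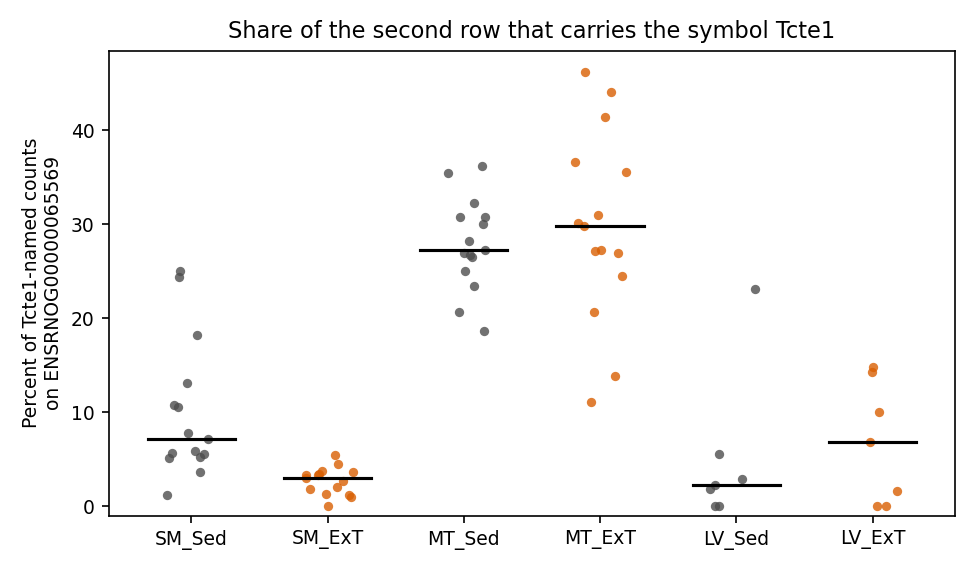
Percent of the counts under the symbol Tcte1 that fell on ENSRNOG00000065569, by library and group (bars are medians). The medians are 7.14% and 2.99% in SM_Sed and SM_ExT, 27.3% and 29.8% in MT and 2.27% and 6.82% in LV.

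Of the genes next to Tcte1 on chromosome 9, those that could be tested were not called for training. So few genes hold few or no calls at the share of all genes called. In RefSeq the 5 nearest genes on one side are Tmem151b, which overlaps the span of Tcte1, Nfkbie, Slc35b2, Hsp90ab1 and Slc29a1. On the other side they are Aars2, which encodes the mitochondrial alanyl-tRNA synthetase, LOC108351892, Spats1, Cdc5l and LOC108351893. Of these 10, 7 could be matched by symbol to the deposited tables and 6 passed the filter. Slc35b2, a nucleotide sugar transporter, had 0 to 7 counts in SM and did not pass it, at a level of 0.0146 in SM_Sed and 0.0997 in SM_ExT, both below that of 3 counts. Tmem151b was not analysed here, and whether counting used strand is not given in the sources used here. The training test called 0 of the 6, against 0.206% of all genes (edgeR adjusted p of at least 0.338, and 0 of 6 under RLE scaling, library totals and in either rat range). Log2 fold changes ran from -0.13 for Slc29a1, an adenosine transporter, to 0.10 for Cdc5l, a splicing factor. Aars2 was at 35.8 ± 4.46 in SM_Sed and 38.4 ± 4.58 in SM_ExT (SD, n = 15 each), a log2 fold change of 0.04 (SE 0.0575). Hsp90ab1, a cytosolic chaperone, was at 905 ± 116 and 947 ± 148, a log2 fold change of 0.01 (SE 0.0646). Spearman's rho with Tcte1 over the 30 SM libraries lay between -0.26 and 0.34 for the 6.

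Of the partners of TCTE1 in its complex, those that could be tested were also not called. At the share of all genes called, a list of this size holds few or no calls. Of 11 other genes of the nexin-dynein regulatory complex, 6 passed the filter in SM and 0 were called in either direction, against 0.206% of all genes. Their median log2 fold change was -0.15, and the median of all genes was -0.01. Drc3 was at 1.31 ± 0.522 in Sed and 1.82 ± 0.585 in ExT (log2 fold change 0.43, SE 0.183, edgeR adjusted p 0.295). Iqcg (DRC9) was at 2.11 ± 1.44 and 1.12 ± 0.581 (-0.99, SE 0.346, edgeR adjusted p 0.204), and Gas8 (DRC4), part of the base plate of the complex, at 2.02 ± 0.306 and 1.86 ± 0.313 (-0.17, SE 0.102, edgeR adjusted p 0.473; SD, n = 15 each). These 3 were singled out after their values were seen. Drc7 had at most 1 count in any SM library, whereas its level in MT_Sed was 67.6 ± 12.8 (SD, n = 15).

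Tested axonemal genes outside the complex were also not called. A list of this size, too, holds few or no calls at the share of all genes called. Of 67 genes of the axoneme and motile cilium 62 were in the tables and 19 passed the filter in SM, 0 were called, against 0.206% of all genes, and the median log2 fold change was -0.07. Their range was -0.64 to 0.15. The cilium regulators Rfx2 and Rfx3 were at 0.12 and 0.00 (edgeR adjusted p 0.753 and 0.999). Foxj1, the defining regulator of motile cilia, was not analysed here. In MT and LV 0 of 62 and 0 of 26 tested members were called, at a background of 0%.

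Levels of germ-cell genes were low in whole muscle, while their MT levels stand on the background described above. Whether the MT values reflect germ-cell RNA was not tested. Of 25 testis and germ-cell genes 22 were in the tables, and 18 of these had at most 10 counts in every SM library. Akap4, Acrv1, Smcp, Pgk2 and Spata19 had 0 counts in all 30 SM libraries. The summed level of the list was 1.43 to 2.95 in SM_Sed and 2.11 to 3.97 in SM_ExT, but 538 to 666 in MT_Sed and 546 to 659 in MT_ExT. The 2 members that passed the filter, Spata20 and Tssk6, were not called over all rats (edgeR adjusted p 0.370 and 0.477), against 0.206% of all genes. Spata20 was called in rats 2 to 16 alone, where 396 genes were.

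Which genes followed Tcte1 over the 30 SM libraries was described by Spearman's rho of log2 CPM with 13569 other genes. All points share the training arms, so genes that differ between arms are bound to rank high, and no p is given. The median rho over all genes was -0.02 and the 1st and 99th percentiles were -0.55 and 0.63. At a rho of 0.7 or more stood 40 genes, of which 15 were called for training, and at -0.7 or less 3 genes. The other 27 called genes had an absolute rho between 0.63 and 0.85.

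Of the genes most like Tcte1, 7 are described. Among them Oplah had the highest rho, 0.85, followed by Got1, the cytosolic aspartate aminotransferase, at 0.84 and Ppip5k1, a kinase that makes inositol pyrophosphates, at 0.83. Prom2 reached 0.83, Rtn4ip1, a mitochondrial oxidoreductase, 0.82, and Hyal3, of the hyaluronidase family, 0.82. Syngr1, a vesicle membrane protein, stood at 0.82. Of these 7, 6 were called for training, and Rtn4ip1 was not (edgeR adjusted p 0.0674). None moved as far as Tcte1: Oplah was at 75.0 ± 11.6 in SM_Sed and 98.95 ± 15.6 in SM_ExT, and Got1 at 423 ± 92.7 and 591 ± 89.1 (SD, n = 15 each). Citrate synthase, Cs, of the tricarboxylic acid cycle, stood at 0.80 and was named after its value was seen. Of the 7, 5 have a RefSeq promoter in the table used, and GTTGCC occurred in 2 of these, those of Got1 and Ppip5k1. Among all promoters 12.2% held it at least once. For the other motifs searched no match was recorded in these 5. That includes the E-box, which 72.1% of all promoters held at least once. The lack of recorded E-box matches was not examined further, and nothing is drawn from it. Whether GTTGCC is more frequent among such genes than among all promoters was not tested.

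With the arms removed, other genes came first. When each library was taken as its deviation from the mean of its arm, Lamb3, the laminin beta-3 chain, led with a rho of 0.81, followed by the kinase gene Sbk1 at 0.79, Serhl2 at 0.77, Endou, an endoribonuclease, at 0.77 and Slc45a3 at 0.76. The 99th percentile over all genes was 0.59. None of these 5 was called for training, with edgeR adjusted p from 0.121 for Lamb3 to 0.927 for Slc45a3. Lamb3 followed Tcte1 in both arms, at 0.88 within SM_Sed and 0.71 within SM_ExT. The 7 genes above kept a rho of 0.56 to 0.76 on this scale, and none of them was among the 5 highest.

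Opposite to Tcte1 over the 30 libraries ran Cesl1 and Shmt1, the cytosolic serine hydroxymethyltransferase, both at -0.73, then Tuft1 at -0.72 and Sumo3, a ubiquitin-like modifier, at -0.69. Of these only Tuft1 was called for training, lower in ExT by a log2 fold change of -0.58 (edgeR adjusted p 0.0440, SE 0.131). Shmt1 was at -0.81 within SM_Sed and -0.49 within SM_ExT.

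**Figure D5:**
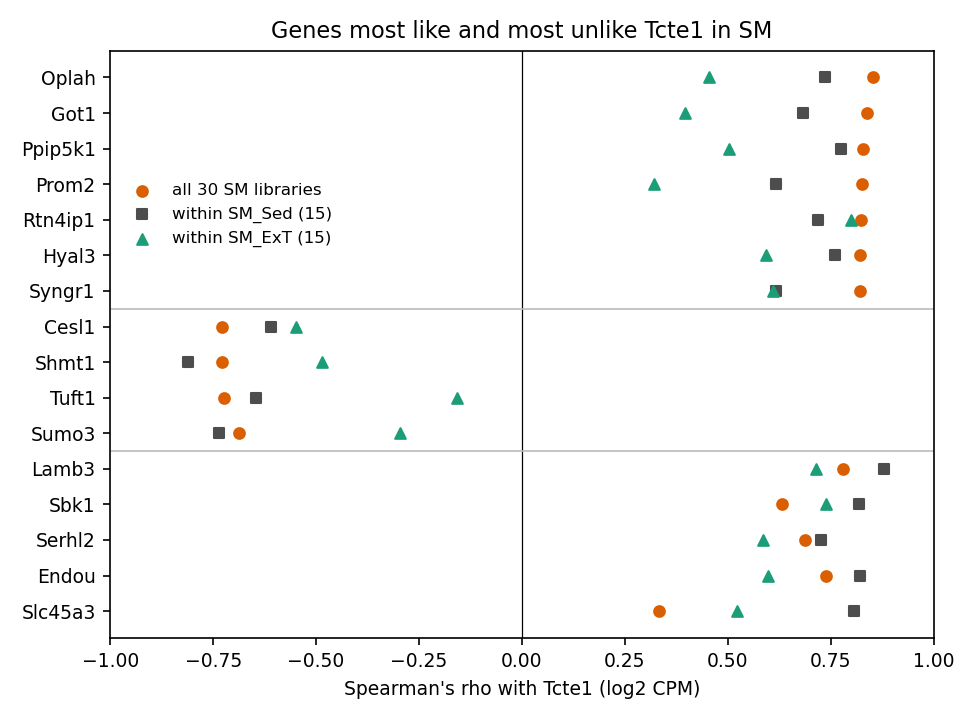
Spearman's rho with Tcte1 in SM for 7 of the likest genes over 30 libraries (top), the 4 most opposite (middle) and the 5 likest after removal of arm means (bottom), each over all 30 libraries (orange), within SM_Sed (grey) and within SM_ExT (green). Lamb3 stands at 0.88 within SM_Sed, and Slc45a3 falls to 0.33 over all libraries.

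Fibre-type genes ranked with or against Tcte1 from rat to rat. All 10 slow-fibre genes had a positive rho, 0.31 to 0.46 over 30 libraries and 0.42 to 0.58 for deviations from arm means. Of 9 fast-fibre genes, 8 had a negative rho and 1 did not. That one was Myh2, the myosin of fast oxidative fibres, at 0.71 on both scales, whereas Myh4, the myosin of fast glycolytic fibres, stood at -0.53 over the 30 libraries. Neither list was called for training (0 of 10 and 0 of 9, against 0.206%), at median log2 fold changes of 0.34 and -0.27. The summed level of the slow-fibre list was 6495 to 40705 in SM_Sed and 7602 to 44085 in SM_ExT, and no member was at 0. The part of fibre make-up in the Tcte1 difference was not tested. In whole tissue, fewer cells of a type and less RNA per cell cannot be told apart.

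Genes known to respond to endurance training were described from a list as well. Of 24 such genes 23 were tested in SM and 0 were called over all rats, against 0.206% of all genes, with a median log2 fold change of 0.21. Cs was at 525.97 ± 83.2 in SM_Sed and 634 ± 58.4 in SM_ExT (SD, n = 15 each; log2 fold change 0.21, SE 0.0579, edgeR adjusted p 0.103), and Ppargc1a, the coactivator of mitochondrial biogenesis, at 45.5 ± 6.52 and 53.7 ± 8.44 (0.19, SE 0.0650, edgeR adjusted p 0.198). In rats 2 to 16 alone 4 of 23 were called: Cs, Ppargc1a, Ppara and Myh2, named after their values were seen. In that range 2.95% of all 13423 genes tested were called.

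Markers of other cells in the muscle sample were not called for training in any list. This held for 0 of 8 endothelial, 6 fibroblast, 6 macrophage, 2 adipocyte, 6 nerve and Schwann cell, 5 satellite cell and 3 red blood cell genes that passed the filter, against 0.206% of all genes, a share at which lists of this size hold few or no calls. Nerve and Schwann cell genes had the highest median log2 fold change of these, 0.49. Their summed level was 25.01 to 200 in SM_Sed and 52.1 to 262 in SM_ExT. Sox10 had 0 counts in 1 SM_Sed library, and no other member was at 0. Their rho with Tcte1 was 0.15 to 0.47 over 30 libraries and 0.01 to 0.30 for deviations from arm means. Macrophage genes ran the other way, with rho from -0.56 to -0.31 over 30 libraries, a median log2 fold change of -0.34, no member at 0, and summed levels of 46.6 to 194 in SM_Sed and 44.7 to 101 in SM_ExT. The part of these cells in the Tcte1 difference was not tested.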

How the data were processed

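The authors deposited raw gene counts in 3 tables, 1 for each sample type, of 30560 Ensembl genes. Per the submitters' processing notes, FastQC 0.74, cutadapt 4.6, STAR 2.7.11a, HTSeq and build mRatBN7.2 were used, and annotation and strand setting are not given in the sources used here. Groups and rat numbers come from the titles. All columns belonged to the 74 libraries. No 2 libraries of the same group agreed within sampling noise (smallest chi-square per degree of freedom 1.20, in MT_ExT). Pairs from different groups were not compared.

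Differences were tested with edgeR 4.0.16 in R 4.3.3 (quasi-likelihood, TMM, filterByExpr, robust) on the libraries of each comparison, with Benjamini-Hochberg adjustment over all genes tested and calls at an adjusted p under 0.05. DESeq2 1.42.0 was an alternative. The tests were checked on simulated data. Likeness used log2 CPM with a prior count of 1. Named likest genes have a symbol and at least 1 CPM on average. They are the 8 highest and 4 lowest by rho and the 5 highest by arm deviations. 1 of the 8 is not reported here. The genes next by p, the 5 nearest genes on each side and called list members were also named. Promoters come from RefSeq, build GRCr8, matched by symbol. Permutation tests used 100000 resamples, or all pairings where n = 7.

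SM, MT and LV of one number come from one rat. Deviations of the same rat correlated with a median r of 0.00330 for MT with SM and 0.0446 for LV with SM, against 0.00140 and -0.00496 for different rats. The gene, the lists and the rat ranges were chosen with earlier results of these data known. Floors of counts cover counting error only, whereas the SE of a fitted difference includes variation between libraries.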

Additional observations from a re-analysis of the deposited data

Results flagged for a closer look

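SM_Sed rat 15 stood apart from the other sedentary rats of the earlier range. Its Tcte1 level of 3.91 exceeded the next by 0.617 of the range of the 7 libraries, past Dixon's limit. For the second row, LV_Sed rat 31 was highest of 7, at a level of 0.158 from 6 counts, with a gap of 0.699 of the range. Of 20 sets examined in this way, each Tcte1 or the second row in a group of libraries, 2 passed. Both ends of each set were looked at, and chance flags about 1 in 20. The SM values of Tcte1 among them are those that chose the gene.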

How the results depend on the processing

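The SM difference of Tcte1 stayed between 1.34 and 2.18 under every alternative run, within 1 SD of the libraries (0.606) of the main value. That SD is a spread of single libraries and is wider than the SE of the main difference, 0.198. All these alternatives reuse the SM libraries that chose the gene. Leaving out 1 library at a time gave 1.62 to 1.78 in SM, -0.20 to -0.11 in MT (adjusted p 0.876 to 1.00) and -0.47 to -0.02 in LV (adjusted p 0.848 to 0.999). The MT and LV training differences and the rat range were called under no alternative, and the MT and LV differences from SM were called under all. The rat range and the differences from SM also use SM libraries that took part in choosing the gene. With the replicate block the difference of Tcte1 from SM was 2.73 for MT and -2.05 for LV, and the pairing did not change its call. The number of genes called for training in SM, 28, was 131 with DESeq2, 45 with rat range as a covariate, 396 in rats 2 to 16 and 1 in rats 17 to 32. Leaving out 1 library gave 12 to 100. It was 12 to 18 without SM_Sed rats 4, 7, 8, 12, 20 or 24 or SM_ExT rats 5, 6, 10, 14, 25 or 27, and 46, 69 and 100 without SM_Sed rats 30, 29 and 23. In LV DESeq2 called 1 gene and edgeR 0. Of the lists, 1 germ-cell gene (Spata20) and 4 endurance genes were called in rats 2 to 16 alone, where 2.95% of all genes were, against 0 over all rats, where 0.206% were. The cause of these changes was not tested. Tcte1 rests on 16 to 70 counts a library in MT, 12 to 67 in LV and 13 to 82 in SM_Sed, which limits its precision.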
